A study of Mus musculus with 8 samples.

Results

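The genes described here are the cadherins and the protocadherins that lie outside the protocadherin gene clusters, measured in cranial neural crest cells (cNCCs) after Sonic hedgehog (SHH) stimulation. The family was picked with earlier results of these data known, and its genes were then taken by symbol from the array annotation, as *Cdh* or *Pcdh* followed by a number, with *Fat1* to *Fat4*, *Dchs1*, *Dchs2* and *Celsr1* to *Celsr3* added. The rule gave 44 of the 22180 genes on the array. These 44 genes have 49 transcript clusters (the sets of probes for 1 transcript unit) among 41345. A gene with several clusters is represented by its brightest, judged by the mean over all arrays.

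RNA of O9-1 cells was hybridised to 8 Affymetrix arrays of the Mouse Gene 2.0 ST design. O9-1 is a single immortalized mouse cNCC line. The SHH-N group had 4 biological replicates that received SHH-N, the active N-terminal peptide of the ligand, at 0.4 μg/mL, and the vehicle group had 4 that did not. Both groups attached for 24 h and were then held in DMEM with 1% FBS, and RNA was collected 48 h after the change of medium. Nothing in the labels says how the replicate cultures were separated. Each p-value sets a difference against variation among these samples only. Whether the differences hold in other cultures or lines was not tested. The pathway responded in every SHH-N array: *Gli1*, the transcriptional effector and target of the pathway, was higher by 4.71 and the receptor gene *Ptch1* by 4.39, and the negatively regulated *Gas1* had a change of -1.87, all as log2 fold changes of SHH-N minus vehicle. The vehicle mean of *Gli1*, 5.33, lay below every array median, so its change may be understated. *Gapdh* had a log2 fold change of -0.04 (adjusted p = 0.722). Array medians ran between 5.70 and 5.76 on the log2 scale, and arrays correlated at r = 0.988 to 0.991 within a treatment and 0.980 to 0.984 between treatments. Array SHH-N 3 stood apart from the other SHH-N arrays on the first principal component (-22.5, against -36.0 to -39.2). On the second it lay farther off, at -41.8, against -10.9 to 17.4 in all other arrays. The same 11 family genes were called without array SHH-N 3. Of 12 measured markers of neural crest mesenchyme, 10 had signal above 5.76 in at least 1 treatment, beside 12916 of all 22180 genes. Of the 12 markers, 4 were lower and 3 higher in SHH-N arrays.

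Most cadherins are single-pass or seven-pass membrane proteins. Their extracellular repeats bind calcium and hold neighbouring cells together, usually by pairing with the same cadherin on the next cell. Classical cadherins are tied by catenins to actin at the adherens junction, protocadherins adhere weakly and also signal, and the giant Fat, Dachsous and Celsr cadherins carry polarity information across a tissue. Neural crest cells are known for exchanging one set of cadherins for another as they leave the neural tube and again as they condense into mesenchyme.

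Genes of this family changed in both directions with SHH-N. By limma's moderated test with Benjamini-Hochberg adjustment over all clusters, 11 of the 44 genes (25%) passed an adjusted p of 0.01, beside 9.98% of all genes. *Cdh1*, *Cdh5*, *Cdh17* and *Fat2* were higher in SHH-N-treated cNCCs (4 of 44, against 4.79% of all genes), and *Cdh2*, *Cdh3*, *Cdh10*, *Pcdh7*, *Pcdh9*, *Pcdh18* and *Fat4* were lower (7 of 44, against 5.19% of all genes). The median log2 fold change was 0.04 over the family and 0.01 over all genes. In 18 of the 44 genes the SHH-N and vehicle arrays did not overlap, beside 25.1% of all genes. A change of at least 2-fold among the called genes was seen for *Cdh1*, *Cdh10* and *Fat4*. The plot of all family fold changes shows the 11 called genes against the 33 that were not called.

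**Figure D1:**
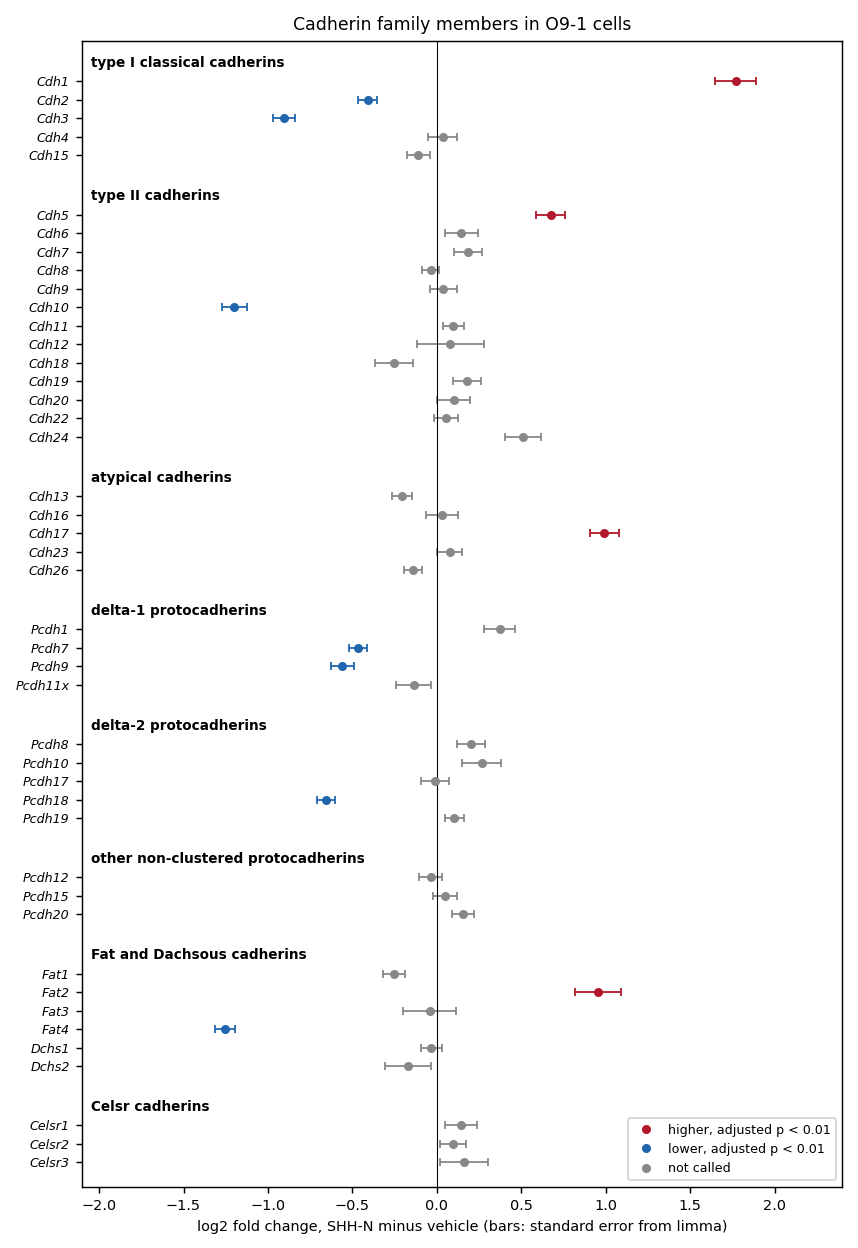
Log2 fold change (SHH-N minus vehicle, x axis) of each of the 44 genes, grouped by subfamily down the y axis, with bars for the standard error from limma (n = 4 arrays per treatment). *Cdh1* lies farthest to the right at 1.77 and *Fat4* farthest to the left at -1.25, and the 33 uncalled genes lie between -0.25 and 0.51.

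Among the 5 type I classical cadherins, the strongest adhesion molecules of the family, 1 was higher, 2 were lower and 2 were not called. *Cdh1* encodes E-cadherin, the defining cadherin of epithelia. Its log2 signals were 8.11, 8.24, 8.18 and 7.96 in SHH-N arrays, against 6.10, 6.42, 6.25 and 6.64 in vehicle arrays. Every SHH-N array lay more than 1 log2 unit above every vehicle array. The difference was 3.41-fold (log2 fold change 1.77, SE 0.12, adjusted p = 3.43e-05, n = 4 per treatment). A dimmer cluster annotated to *Cdh1* had 4.77 ± 0.08 in SHH-N arrays and 4.58 ± 0.17 in vehicle arrays (SD, n = 4 each), below the median of every array, with a log2 fold change of 0.19 (adjusted p = 0.268). Averaged over both clusters, the log2 fold change of *Cdh1* was 0.98 and passed (limma, adjusted p = 9.98e-06). That fit was adjusted over 22180 genes and not over all clusters, so its adjusted p is not comparable with the one above.

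*Cdh2*, or N-cadherin, is the classical cadherin of neural and mesenchymal cells. It had 10.60, 10.57, 10.64 and 10.74 in SHH-N arrays, against 11.04, 11.03, 11.07 and 11.04 in vehicle arrays. The groups did not overlap, and the vehicle arrays were close to each other. The log2 fold change was -0.41 (SE 0.06, adjusted p = 0.00183). A second cluster annotated to *Cdh2* had a log2 fold change of -0.51 that did not pass the threshold (adjusted p = 0.0327).

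*Cdh3* encodes P-cadherin, found in placenta and basal epithelia. Its signals were 8.36, 8.11, 8.21 and 8.22 in SHH-N arrays, against 9.11, 9.12, 9.12 and 9.19 in vehicle arrays. All SHH-N arrays were lower, with a log2 fold change of -0.91 (SE 0.07, adjusted p = 4.80e-05). *Cdh3* and *Cdh1* are neighbours on mouse chromosome 8 with 0 protein-coding genes between them in RefSeq (GRCm38.p6), and here they changed in opposite directions. In all, 9 of the 44 genes lie on chromosome 8, of which *Cdh1* and *Cdh5* were higher and *Cdh3* was lower. The other type I genes had log2 fold changes of 0.03 for *Cdh4* (R-cadherin) and -0.11 for *Cdh15* (M-cadherin, of muscle), with adjusted p of 0.866 and 0.376.

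**Figure D2:**
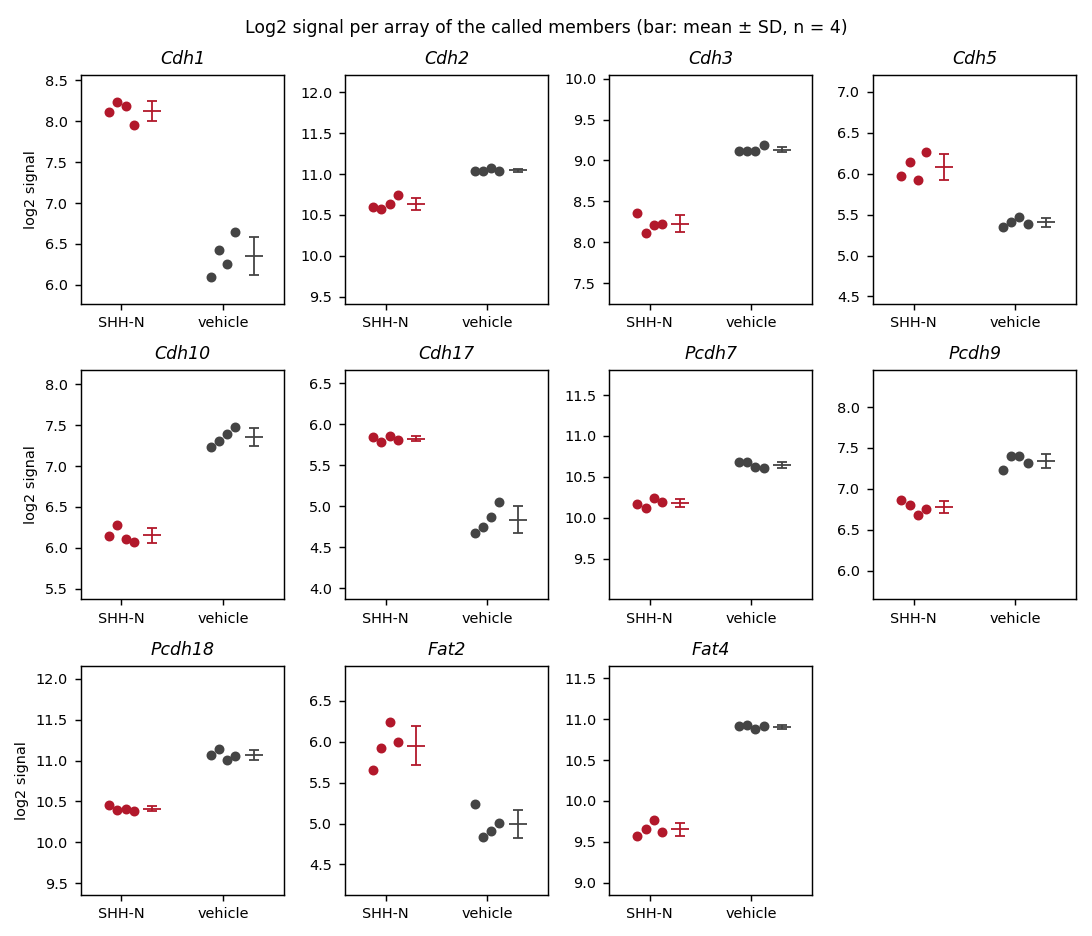
Log2 signal (y axis, the same span of units in each panel) of the 11 called genes in the 4 SHH-N arrays, on the left of each panel, and the 4 vehicle arrays, on the right, with points for single arrays and lines for means with SD. In no panel do the SHH-N and vehicle arrays overlap.

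The balance between *Cdh1* and *Cdh2* was measured within each array as the log2 signal of *Cdh1* minus that of *Cdh2*. Different probe sets bind with different strength, so the sign of such a difference does not order the levels of the genes, and only its change between treatments is read. The difference was -2.49, -2.33, -2.45 and -2.78 in SHH-N arrays, against -4.94, -4.61, -4.82 and -4.40 in vehicle arrays. It was greater in each SHH-N array, by 2.18 on average (two-sided exact permutation test, p = 0.0286, the lower limit with 4 against 4 arrays, and 0.0381 after adjustment over the 4 pairs examined). It was 1.44 with the clusters of each gene averaged. As *Cdh1* was higher and *Cdh2* lower in every SHH-N array, the permutation p was fixed beforehand and adds no support. *Cdh2* minus *Cdh11*, the pair of N-cadherin with the main mesenchymal type II cadherin, was -1.95 ± 0.15 in SHH-N arrays and -1.45 ± 0.06 in vehicle arrays (SD, n = 4 each), a change of -0.51 (exact permutation p = 0.0286, adjusted 0.0381). The fall of *Cdh2* beside a *Cdh11* that was not called fixed this p as well.

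Cells of another kind in the cultures were looked for through their markers. Of 9 epithelial markers, 0 passed limma's adjusted threshold, with 1 at an unadjusted p under 0.05 and 0 by an unmoderated test fitted to each cluster separately. Of these, 7 had mean signals at or below 5.76 in both treatments, among them *Epcam*, *Esrp1* and *Grhl2*. Over all 9 markers the summed level, as log2 of summed signal, ran between 8.69 and 8.82 in SHH-N arrays. In vehicle arrays it ran between 8.65 and 8.87, and the ranges overlapped. With most of these markers that dim, a minor population of such cells could be missed. The overlap therefore does not decide whether any were present.

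The 13 type II cadherins, which sort cells into layers and pools, had 1 gene higher, 1 lower and 11 not called. *Cdh10* is best known from the brain. It had 6.15, 6.28, 6.11 and 6.07 in SHH-N arrays, against 7.24, 7.30, 7.39 and 7.48 in vehicle arrays. Each SHH-N array was lower, and the mean level was 2.30-fold lower (log2 fold change -1.20, SE 0.08, adjusted p = 2.06e-05). The stretch upstream of its start is printed with those of the protocadherins.

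*Cdh5*, or VE-cadherin, is the junctional cadherin of endothelium. Its signals were 5.97, 6.15, 5.92 and 6.27 in SHH-N arrays, against 5.35, 5.41, 5.47 and 5.38 in vehicle arrays. All SHH-N arrays were higher (log2 fold change 0.67, SE 0.09, adjusted p = 0.00111). Its vehicle mean, like those of *Cdh17* and *Fat2*, lay below the median of every array. No background estimate accompanies the signals. For these 3 genes the true fold may exceed the printed one if their vehicle signal was background only. Their SHH-N means, 6.08 for *Cdh5*, 5.83 for *Cdh17* and 5.95 for *Fat2*, lay little above the highest array median of 5.76. The 3 genes were thus dim in both treatments, and whether they are expressed was not tested. Of 6 endothelial markers 0 passed the adjusted threshold by limma, 0 had an unadjusted p under 0.05 and 0 passed by the unmoderated test, and 5 had mean signals at or below 5.76 in both treatments, among them *Kdr*, *Tek* and *Tie1*. Over all 6 markers the summed level was between 7.72 and 7.86 in SHH-N arrays and between 7.70 and 7.86 in vehicle arrays. With most of them that dim, a minor endothelial population could be missed here too.

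*Cdh11*, or OB-cadherin, marks mesenchyme and bone-forming cells. Its mean was 12.59 ± 0.09 in SHH-N arrays and 12.49 ± 0.05 in vehicle arrays (SD, n = 4 each). The log2 fold change of 0.10 was not called (adjusted p = 0.406), and its 95% confidence interval, -0.05 to 0.24, leaves no room for a change as large as that of *Cdh2*. *Cdh24* came nearest to a call, at 7.94 ± 0.11 in SHH-N arrays and 7.43 ± 0.20 in vehicle arrays without overlap (log2 fold change 0.51, adjusted p = 0.0171). *Cdh6*, a cadherin of the premigratory crest, had a log2 fold change of 0.14 (adjusted p = 0.436). *Cdh6* minus *Cdh11* within an array was -7.16 ± 0.08 in SHH-N arrays and -7.21 ± 0.15 in vehicle arrays, a change of 0.05 (exact permutation p = 0.514, adjusted 0.514). The other 8 type II genes, *Cdh7*, *Cdh8*, *Cdh9*, *Cdh12*, *Cdh18*, *Cdh19*, *Cdh20* and *Cdh22*, had log2 fold changes between -0.25 and 0.18.

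Of the 5 atypical cadherins, most of which lack the catenin-binding tail of the classical ones, 1 was higher and 4 were not called. *Cdh17* encodes LI-cadherin, an adhesion protein of the intestinal lining. It had 5.85, 5.79, 5.85 and 5.81 in SHH-N arrays, against 4.68, 4.74, 4.87 and 5.05 in vehicle arrays. The SHH-N arrays were higher and close to each other (log2 fold change 0.99, SE 0.08, adjusted p = 1.16e-04). *Cdh13*, the GPI-anchored T-cadherin, had 9.25 ± 0.04 in SHH-N arrays and 9.45 ± 0.08 in vehicle arrays, without overlap, and was not called (log2 fold change -0.20, adjusted p = 0.0657). *Cdh16*, *Cdh23* and *Cdh26* had log2 fold changes of 0.03, 0.08 and -0.14.

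Non-clustered protocadherins were lower or not called. Of the 4 delta-1 genes 2 were lower, of the 5 delta-2 genes 1 was lower, and of the 3 other genes, *Pcdh12*, *Pcdh15* and *Pcdh20*, 0 passed the adjusted threshold by limma or by the unmoderated test, with 1 at an unadjusted p under 0.05 and log2 fold changes between -0.04 and 0.15. The 250 bases upstream of the RefSeq start (GRCm38.p6) are shown for the called protocadherins and for *Cdh10*, because all 4 genes were lower in SHH-N-treated cNCCs while these stretches differ in base composition. *Fat2* and *Fat4* also have a RefSeq start and are not printed. Each runs 5′ to 3′ on the gene's own strand, with CpG dinucleotides in capitals.
*Cdh10*, chr15:18820079-18820328, plus strand: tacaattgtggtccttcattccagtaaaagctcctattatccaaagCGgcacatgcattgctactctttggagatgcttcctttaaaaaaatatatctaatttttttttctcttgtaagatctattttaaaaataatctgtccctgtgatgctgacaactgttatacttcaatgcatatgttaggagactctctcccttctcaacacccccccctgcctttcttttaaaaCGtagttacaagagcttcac
*Pcdh7*, chr5:57717831-57718080, plus strand: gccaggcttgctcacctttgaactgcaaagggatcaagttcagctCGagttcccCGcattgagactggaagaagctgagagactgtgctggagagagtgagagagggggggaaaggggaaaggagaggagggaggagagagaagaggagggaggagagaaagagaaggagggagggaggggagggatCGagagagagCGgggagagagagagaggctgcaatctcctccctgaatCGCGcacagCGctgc
*Pcdh9*, chr14:93890680-93890929, minus strand: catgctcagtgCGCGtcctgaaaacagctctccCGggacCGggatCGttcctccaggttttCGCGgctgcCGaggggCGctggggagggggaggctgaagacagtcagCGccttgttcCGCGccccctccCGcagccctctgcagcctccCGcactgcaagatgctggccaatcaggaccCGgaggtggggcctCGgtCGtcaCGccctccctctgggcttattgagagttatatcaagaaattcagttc
*Pcdh18*, chr3:49757317-49757566, minus strand: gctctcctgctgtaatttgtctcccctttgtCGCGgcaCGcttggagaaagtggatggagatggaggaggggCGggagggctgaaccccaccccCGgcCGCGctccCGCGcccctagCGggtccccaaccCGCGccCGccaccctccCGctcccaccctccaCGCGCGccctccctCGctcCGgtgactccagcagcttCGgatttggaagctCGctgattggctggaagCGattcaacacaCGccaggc
They hold 2 CpG in *Cdh10*, 7 in *Pcdh7*, 18 in *Pcdh9* and 23 in *Pcdh18*, and their GC content is 36.8%, 58.4%, 63.6% and 68%. The median over all promoters of the RefSeq table was 6 CpG and 52.4% GC, and over the matched family genes 11 CpG and 58% GC.

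Promoters in that table, 250 bases before and 50 after a start, matched 29 of the 44 genes, and *Cdh1* was among the 15 without a match. So were *Cdh2*, *Cdh3*, *Cdh5* and *Cdh17*, which left 6 called genes with a promoter to search. Searched on both strands, the GLI consensus GACCACCCA was found in 0 of the 29 genes, against 0.253% of the 32851 promoters. With a sequence that rare, 0 was likely in any 29 genes, so the search cannot tell whether GLI acts on them. The E-box CACCTG, a sequence bound by Snail and Zeb repressors, was found in 5 of 29 genes (17.2%), against 20.2% of all promoters. Those 5 genes were *Cdh7*, *Celsr2*, *Fat1*, *Pcdh15* and *Pcdh7*, of which *Pcdh7* was called. A family gene counted once if any of its starts matched, while the background counted single promoters. The family share and the background share are therefore of unlike units, and no difference is read from them.

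*Pcdh18* had 10.45, 10.39, 10.41 and 10.38 in SHH-N arrays, against 11.06, 11.14, 11.00 and 11.06 in vehicle arrays. The groups were separated by more than the range within either (log2 fold change -0.66, SE 0.05, adjusted p = 9.76e-05). *Pcdh7*, also called NF-protocadherin in the frog, where it acts in ectoderm and in the neural tube, had 10.16, 10.13, 10.24 and 10.19 in SHH-N arrays, against 10.68, 10.68, 10.62 and 10.61 in vehicle arrays. All SHH-N arrays were lower (log2 fold change -0.47, SE 0.05, adjusted p = 6.09e-04). *Pcdh9*, a delta-1 protocadherin best known from neurons, had 6.87, 6.80, 6.68 and 6.76 in SHH-N arrays, against 7.23, 7.41, 7.40 and 7.32 in vehicle arrays, again without overlap (log2 fold change -0.56, SE 0.07, adjusted p = 8.21e-04).

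*Pcdh19*, a delta-2 protocadherin that pairs with N-cadherin, had 10.40 ± 0.07 in SHH-N arrays and 10.29 ± 0.03 in vehicle arrays (SD, n = 4 each). Its log2 fold change was 0.10 with a 95% confidence interval of -0.03 to 0.23, which excludes a fall of the size seen in *Pcdh18*. *Pcdh1* had a log2 fold change of 0.37 and did not pass (adjusted p = 0.0369). *Pcdh8*, which is paraxial protocadherin, had a log2 fold change of 0.20 (adjusted p = 0.177), and *Pcdh10* and *Pcdh17* had 0.26 and -0.01. *Pcdh11x* had signals far below the array medians, at 2.99 ± 0.13 in SHH-N arrays and 3.13 ± 0.17 in vehicle arrays.

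Of the 6 Fat and Dachsous cadherins, 1 was higher, 1 was lower and 4 were not called. *Fat4* encodes the receptor in the Fat-Dachsous pair, whose ligand is DCHS1. It had 9.57, 9.66, 9.76 and 9.62 in SHH-N arrays, against 10.91, 10.93, 10.87 and 10.92 in vehicle arrays. Each SHH-N array was at least 1 log2 unit below every vehicle array, and *Fat4* had the smallest adjusted p of the 44 genes (2.38-fold lower, log2 fold change -1.25, SE 0.06, adjusted p = 4.11e-06). A second *Fat4* cluster had a log2 fold change of -0.38 without overlap and was not called (adjusted p = 0.0811). Averaged over both clusters the log2 fold change was -0.82 and passed (limma, adjusted p = 9.98e-06, over genes and not over all clusters).

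*Dchs1* was not called. It had 9.69 ± 0.08 in SHH-N arrays and 9.72 ± 0.05 in vehicle arrays (SD, n = 4 each), with a log2 fold change of -0.03 (95% confidence interval -0.18 to 0.11, adjusted p = 0.799). The within-array difference *Fat4* minus *Dchs1* was -0.00, -0.10, 0.08 and -0.11 in SHH-N arrays, against 1.12, 1.21, 1.18 and 1.23 in vehicle arrays. It was lower in every SHH-N array, with a mean change of -1.22 (two-sided exact permutation p = 0.0286, adjusted 0.0381), and the value was -0.78 with the clusters of a gene averaged. The fall of *Fat4* beside a *Dchs1* that was not called fixed this p, which adds no support to the call of *Fat4*. The plot of gene pairs gives these differences by array.

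**Figure D3:**
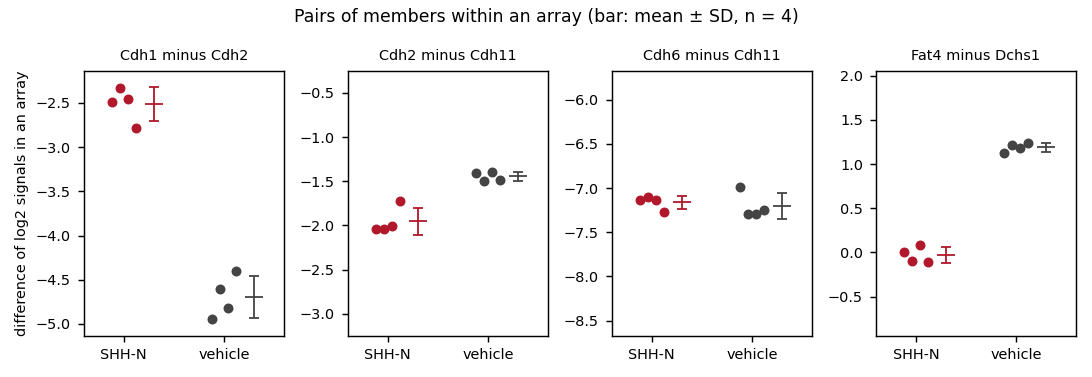
Within-array difference in log2 signal (y axis) for 4 pairs of family genes in the 4 SHH-N arrays, on the left of each panel, and the 4 vehicle arrays, on the right, with means and SD. The treatments separate for *Cdh1* minus *Cdh2* (change 2.18), *Cdh2* minus *Cdh11* (-0.51) and *Fat4* minus *Dchs1* (-1.22), and they overlap for *Cdh6* minus *Cdh11* (0.05).

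*Fat2*, a Fat cadherin of epidermis and cerebellar granule cells, had 5.65, 5.93, 6.24 and 5.99 in SHH-N arrays, against 5.24, 4.84, 4.91 and 5.01 in vehicle arrays. All SHH-N arrays were higher (log2 fold change 0.95, SE 0.13, adjusted p = 0.00204), but the call was lost with the unmoderated test (adjusted p = 0.0103). *Fat1*, the broadly used member with roles at cell protrusions, had 11.81 ± 0.08 in SHH-N arrays and 12.06 ± 0.08 in vehicle arrays and did not pass (log2 fold change -0.25, adjusted p = 0.0432). *Fat3* and *Dchs2*, at or below 5.76 in both treatments, had log2 fold changes of -0.04 and -0.17.

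The 3 Celsr genes encode the seven-pass cadherins of the planar cell polarity core. Their log2 fold changes were 0.14 for *Celsr1*, 0.09 for *Celsr2* and 0.16 for *Celsr3*, with adjusted p between 0.427 and 0.572 by limma, 0 passing by the unmoderated test and 0 at an unadjusted p under 0.05. Over the whole family, 19 genes had mean signals at or below 5.76 in both treatments, with log2 fold changes between -0.25 and 0.37. They were *Cdh6*, *Cdh7*, *Cdh8*, *Cdh9*, *Cdh12*, *Cdh16*, *Cdh18*, *Cdh19*, *Cdh20*, *Cdh23*, *Pcdh1*, *Pcdh10*, *Pcdh11x*, *Pcdh15*, *Pcdh17*, *Pcdh20*, *Fat3*, *Dchs2* and *Celsr3*. At signals that low a change could have gone undetected.

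Genes that work with cadherins were taken from 10 lists holding 102 measured genes, of which 19 passed (18.6%, 6 higher and 13 lower), beside 9.98% of all genes. The median log2 fold change of these genes was -0.01. Most of the 102 had signal above 5.76 in at least 1 treatment. Of all genes with such signal 16.6% passed, so 9.98% is a low reference for these lists. The 16.6% leaves out dim genes, while the 18.6% counts the dim genes of the lists too. Those shares are therefore of unlike sets, and no difference is read from them. Among 10 catenins, the cytoplasmic proteins that tie cadherins to actin and to signaling, *Ctnnb1* (beta-catenin) was higher, with 11.99 ± 0.09 in SHH-N arrays and 11.06 ± 0.05 in vehicle arrays (SD, n = 4 each, log2 fold change 0.92, adjusted p = 3.58e-05). *Pkp4* (plakophilin 4) was higher by 0.38 on the log2 scale. *Ctnnd1* (p120-catenin), which keeps cadherins at the membrane, had a log2 fold change of -0.37, and it was not called without SHH-N 1 or without vehicle 2, 3 or 4 (adjusted p 0.0101 to 0.0114). *Ctnna1* (alpha-catenin) and *Jup* (plakoglobin) had log2 fold changes of 0.01 and -0.01 and were not called.

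Of 10 adherens junction linkers to actin, 5 were lower and 1 was higher. Vinculin (*Vcl*) had 10.75 ± 0.04 in SHH-N arrays and 11.58 ± 0.05 in vehicle arrays (log2 fold change -0.83). *Lima1* (-0.77), *Shroom3* (-0.67), *Ajuba* (-0.48) and *Tjp1* (-0.40), which encode an actin crosslinker, an organizer of apical actin, a LIM protein and the scaffold ZO-1, were also lower by their log2 fold changes. *Magi1*, a junctional scaffold, was higher, with 8.56 ± 0.10 in SHH-N arrays and 7.51 ± 0.02 in vehicle arrays (log2 fold change 1.05). Of 8 nectin, afadin and Cadm genes, afadin (*Afdn*) was higher by 0.71 and *Cadm1*, an immunoglobulin-type adhesion molecule, had a log2 fold change of -1.33.

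Of 13 desmosomal cadherins and plaque genes, 0 passed the adjusted threshold by limma or by the unmoderated test and 0 had an unadjusted p under 0.05, and 11 of them lay at or below 5.76 in both treatments. Of 22 clustered beta protocadherins, 0 passed by either test, with 5 at an unadjusted p under 0.05 and a median log2 fold change of 0.04.

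Among 4 partners of the Fat-Dachsous pair, *Lix1* was lower (log2 fold change -0.63). Of 15 planar cell polarity genes, *Fzd6*, a Frizzled receptor of that pathway, was lower by its log2 fold change of -0.74 and passed in every fit with an array left out. *Fzd3* and *Vangl2* were higher (0.53 and 0.35) and *Prickle1* was lower (-0.35), but *Vangl2* and *Prickle1* were not called when any single array was left out (adjusted p from 0.0135 to 0.0257 and from 0.0128 to 0.0257), nor was *Fzd3* without any of the 4 SHH-N arrays or without vehicle 1 or 4 (0.0105 to 0.0158). Of 11 genes for cadherin processing, the proprotein convertase *Pcsk6* was lower (-0.72), and of 4 genes for cadherin O-mannosylation, the mannosyltransferase *Tmtc1* was lower (-1.21).

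*Snai2*, a zinc-finger repressor that acts on *Cdh1* in epithelial-mesenchymal transition, was the called gene among 5 transcription factors of that process. It had 9.36, 9.32, 9.26 and 9.20 in SHH-N arrays, against 10.75, 10.85, 10.88 and 10.76 in vehicle arrays (log2 fold change -1.53, SE 0.06, adjusted p = 2.22e-06). All SHH-N arrays were lower. *Zeb1*, another such repressor, had a log2 fold change of -0.26 and did not pass (adjusted p = 0.0155), and *Snai1* had 0.09. Whether *Snai2* takes part in the change of *Cdh1* was not tested.

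**Figure D4:**
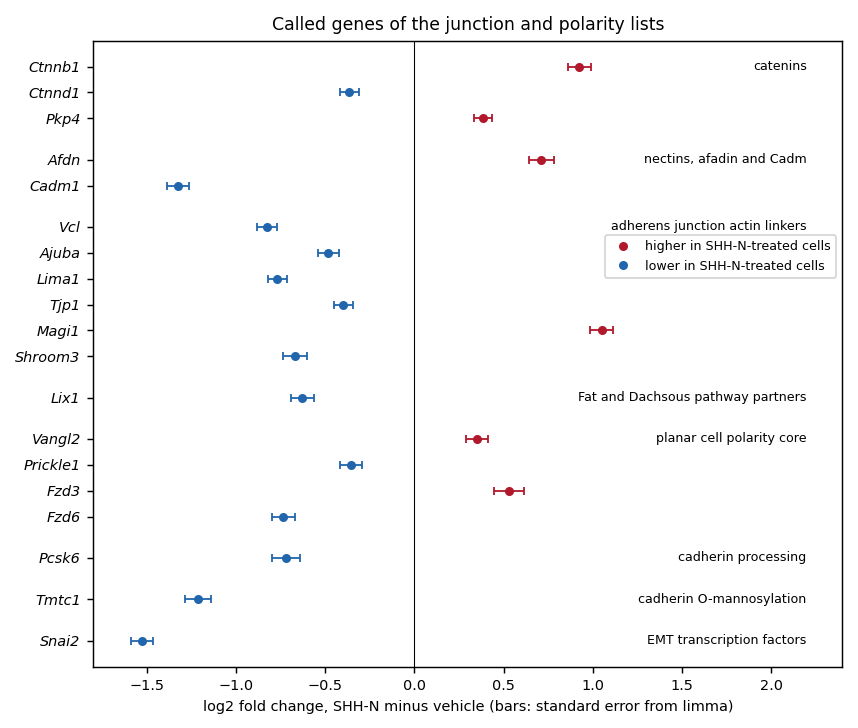
Log2 fold change (SHH-N minus vehicle, x axis) with its standard error from limma for the 19 called genes of the lists of cadherin partners, ordered by list down the y axis (n = 4 arrays per treatment). The 6 genes in red were higher in SHH-N-treated cNCCs, up to 1.05 for *Magi1*, and the 13 in blue were lower, down to -1.53 for *Snai2*.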

How the data were processed

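RNA of 4 SHH-N and 4 vehicle cultures of O9-1 cells was hybridised to 1 array each, and the treatment of each array came from its label. The authors read the arrays with GCOS, made signals with Expression Console and tested them in Transcriptome Analysis Console 2.0, per their notes and methods. Their deposited log2 signals, 1 for each transcript cluster, were used unchanged. The normalization algorithm and the genome build are not given in the sources used here.

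limma 3.58.1 (R 4.3.3) was fitted to all 41345 clusters (lmFit and eBayes, SHH-N minus vehicle, no block, no filter on dim clusters), and calls were made below a Benjamini-Hochberg adjusted p of 0.01. Symbols came from the array annotation: 23521 clusters had 1 symbol, 1820 several and 16004 none, and only those with 1 were named. Pairs of genes were compared by the exact permutation test. Precision is limited by the number of arrays. The code was tested on simulated data. At an adjusted p of 0.01 it recovered 34% of changes of 1.5-fold, 68% of 2-fold and 96% of 4-fold. A change of 1.5-fold or 2-fold can therefore go uncalled. Far fewer clusters were changed in the simulation than were called here, so these shares are a rough guide. Alternatives were an unmoderated test per cluster (the authors' methods name the software and not the test), trend and robust settings, quantile normalization and median centring. Others were a filter at the median of the cluster means, the replicate number as a block, an adjusted p under 0.05 and a minimum of 1.5-fold. The last were the mean over a gene's clusters and leaving out each array. Plots used matplotlib 3.10.9 (Python 3.11.15), and sequences are from RefSeq (GRCm38.p6).

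The members and the lists were chosen with earlier results of these data known. All 44 family genes are described, with each array's value for the called ones. The rule named up to 4 called genes with the largest changes from each partner list. *Ajuba*, *Tjp1*, the genes of these lists that were not called and the marker genes were named after their values were seen. *Cadm2*, *Prickle4* and *Zeb2* were not analysed here.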

Additional observations from a re-analysis of the deposited data

Results flagged for a closer look

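Of 132 sets of 4 arrays screened for the genes described, 10 had 1 array whose distance to the nearest other exceeded Dixon's critical share of the range, where chance gives about 1 set in 20. Of these 8 concern family genes. *Cdh3* had 9.19 in vehicle 4, with the other vehicle arrays between 9.11 and 9.12. *Cdh4* had 6.09 in vehicle 4 (others 6.27 to 6.30). *Cdh6* had 5.19 in SHH-N 4 (others 5.50 to 5.51). *Cdh22* had 6.28 in SHH-N 4 (others 6.12 to 6.14). *Cdh24* had 7.13 in vehicle 2 (others 7.52 to 7.54). *Pcdh1* had 5.45 in SHH-N 3 (others 5.54 to 5.55). *Fat3* had 4.56 in vehicle 2 (others up to 5.05). *Celsr1* had 6.41 in SHH-N 4 (others 6.27 to 6.28). Among the partners, *Ctnnb1* had 11.85 in SHH-N 4 (others 12.02 to 12.04) and *Lix1* had 5.15 in SHH-N 2 (others 5.30 to 5.32). The called genes among these, *Cdh3*, *Ctnnb1* and *Lix1*, passed in every fit with 1 array left out.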

How the results depend on the processing

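The 4 higher and 7 lower family genes were the same 11 genes when any 1 array was left out, and with quantile normalization or median centring. The number of calls was 10 with the unmoderated test, where *Fat2* was lost (adjusted p = 0.0103), and 13 with trend and robust settings, where *Cdh24* (0.00814) and *Fat1* (0.00842) passed. It was 14 at an adjusted p under 0.05, with *Cdh24*, *Fat1* and *Pcdh1* added, and 12 with the clusters of a gene averaged, with *Cdh24* added (0.00589). That setting was adjusted over 22180 genes and not over all clusters, and the log2 fold change of *Cdh24* stayed at 0.51. Over clusters with a mean above the median of all cluster means, the number of calls was 10. *Cdh24* was added (0.00629) with its fold change the same and fewer clusters tested, and *Cdh17* and *Fat2* were outside the filter. The replicate numbers name samples only, and deviations of same-numbered arrays correlated between -0.02 and 0.02. With that number as a replicate block, 2 family genes were higher and 4 lower, and *Cdh2* (0.0253), *Cdh5* (0.0143), *Fat2* (0.0249), *Pcdh7* (0.0174) and *Pcdh9* (0.0180) were lost. Among the partners the replicate block left 3 higher and 8 lower. With a minimum of 1.5-fold, 4 family genes were lower, without *Cdh2*, *Pcdh7* and *Pcdh9*, and 3 partners were higher. *Fzd3* was lost with the unmoderated test (0.0104) and *Prickle1* with median centring (0.0137). Leaving out 1 array gave 4 to 5 higher and 11 to 12 lower partners. No fold change or pair difference turned its sign among called results. The pair differences ran from 2.09 to 2.28 for *Cdh1* minus *Cdh2*, from -0.58 to -0.48 for *Cdh2* minus *Cdh11*, from 0.02 to 0.12 for *Cdh6* minus *Cdh11* and from -1.26 to -1.19 for *Fat4* minus *Dchs1* with 1 array left out. The values hold no signal over background, so how far dim clusters limit detection was not tested.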

Other observations

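Of 12 markers of neural crest mesenchyme, 4 were lower and 3 higher in SHH-N-treated cNCCs. *Tfap2a*, a transcription factor of the crest, had 9.96 ± 0.15 in SHH-N arrays and 10.93 ± 0.06 in vehicle arrays (SD, n = 4 each, log2 fold change -0.98), and *Prrx1* and *Prrx2*, homeobox genes of facial mesenchyme, had log2 fold changes of -0.62 and -0.42. *Snai2* was the other lower marker. *Ets1*, *Cd44* and *Pdgfra* were higher by 1.07, 0.69 and 0.32. Of 5 pericyte markers 1 was called: *Cspg4*, the proteoglycan NG2, was higher by 1.25. The other 4 were not called, with log2 fold changes of 0.54 for *Kcnj8*, 0.18 for *Abcc9*, -0.12 for *Rgs5* and -0.16 for *Pdgfrb*. Of 4 melanocyte markers 1 was called: *Mitf* was lower with a log2 fold change of -0.52. *Tyr*, *Dct* and *Pmel* were not called, with log2 fold changes of 0.03, 0.07 and 0.11. Calls were made by limma at an adjusted p under 0.01.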
